A study of Mus musculus with 59 samples.

Results

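The fatty acid elongases encoded by Elovl1 to Elovl7 were followed in the brown adipose tissue (BAT) of mice after thyroid hormone, cold and high-fat diet. The members were the 7 rows with these symbols among the 55341 genes of each of the 3 deposited count tables, and all 7 were present in every table. Brown adipose tissue is the heat-producing fat of mammals. RNA of 59 male C57BL/6J mice aged 8 to 12 weeks, sequenced as total RNA after Trizol extraction, made up 15 groups.

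In the hormone experiment, all mice were fed propylthiouracil (PTU), which blocks the synthesis of thyroid hormone. Wild-type (WT) mice were left as PTU controls (n = 4) or taken 3 h, 6 h, 12 h or 24 h after an injection of thyroid hormone (TH, n = 4 at each time), and BATKO mice were PTU controls (n = 5) or were taken 24 h after TH (n = 5). In the temperature experiment, control (CTRL) mice were kept at 30 °C (n = 4) or for 24 h at 4 °C (n = 3), and BATKO mice likewise at 30 °C (n = 5) or 4 °C (n = 4). In the diet experiment, CTRL mice received chow (n = 4) or a high-fat diet (HFD) for 3.5 days (n = 4), and BATKO mice chow (n = 2) or HFD (n = 3). The genetic change behind the name BATKO, and the promoter that would drive it, are given neither in the labels nor in the study's text, so that the name is used here as a label only. Housing temperature in the hormone and diet experiments and the clock time of collection are not given either.

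Total counts per mouse ranged from 7612059 to 18073627, and mitochondrial genes held 39.3% to 55.7% of them. Ucp1, the uncoupling protein of brown fat, was read in every mouse, at 146 CPM (the gene's reads scaled to a common library size) or more, and Fabp4, a lipid carrier of fat cells, at 2809 CPM or more. Of the sebaceous or skin markers, Krt5, Krt14 and Awat2 did not exceed 0.64 CPM in any mouse, while Mc5r, a melanocortin receptor, was read in every mouse, at up to 16.5 CPM. The higher sums of these markers given below are thus mostly Mc5r, and are no measure of skin cells. The liver markers Alb, Apoa1 and Ttr did not exceed 0.76 CPM. The summed level of 6 skeletal muscle markers varied widely, from 0.639 to 7711 CPM between mice. In whole tissue, fewer cells of a type and less RNA per cell cannot be told apart.

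Elongases catalyse the first, rate-setting step of fatty acid elongation in the endoplasmic reticulum, the condensation of malonyl-CoA with an acyl-CoA. A ketoacyl reductase, a dehydratase and an enoyl reductase then complete the cycle, and the chain leaves longer than it came. The members differ in the chains they accept. ELOVL6 turns palmitate into stearate and palmitoleate into vaccenate, ELOVL1, ELOVL3 and ELOVL7 take longer saturated and monounsaturated chains, ELOVL2 and ELOVL5 take polyunsaturated chains, and ELOVL4 makes the very longest chains of retina, brain and skin. Elovl3 is known as a gene that brown fat raises in the cold.

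In the GENCODE annotation of GRCm38, Elovl6 lies on chr3:129532355-129638495, Elovl1 on chr4:118428093-118432953, Elovl5 on chr9:77917364-77984519, Elovl4 on chr9:83778692-83806277, Elovl2 on chr13:41182381-41220405, Elovl7 on chr13:108214404-108285683 and Elovl3 on chr19:46131897-46135694. All 7 are protein-coding. Elovl2 and Elovl4 are on the minus strand and the other 5 on the plus strand. Exons overlap those of an opposite-strand gene by 53 bases for Elovl1 (Cdc20), by 10 bases for Elovl3 (Pitx3) and by 34 bases for Elovl6 (Gm35986), and no exon base is shared for the other 4. The strand setting of the counting is not given, so that reads from these short overlaps cannot be assigned.

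Elovl6 and Elovl5 both rose at 4 °C and at 24 h of TH (values below), and their promoters are shown for that reason. RefSeq promoter windows (GRCm38.p6) matched 6 of the 7 members. None was available for Elovl3, whose promoter was therefore not searched. Each stretch below is the plus strand from 250 bases before the RefSeq start to the base before the first transcribed base of GENCODE. Capitals mark matches, on either strand, to AGGTCA (the half-site of thyroid hormone receptors, whose response elements pair such half-sites), CACGTG (the E-box), CCAAT (the NF-Y box) or TGACG (the core of the cyclic AMP response element).
Elovl6, chr3:129532136-129532354: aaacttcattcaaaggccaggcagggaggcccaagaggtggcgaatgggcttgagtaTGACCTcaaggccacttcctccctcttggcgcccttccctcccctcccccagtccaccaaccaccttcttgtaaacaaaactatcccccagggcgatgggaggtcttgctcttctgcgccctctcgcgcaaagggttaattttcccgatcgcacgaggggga
Elovl5, chr9:77917115-77917363: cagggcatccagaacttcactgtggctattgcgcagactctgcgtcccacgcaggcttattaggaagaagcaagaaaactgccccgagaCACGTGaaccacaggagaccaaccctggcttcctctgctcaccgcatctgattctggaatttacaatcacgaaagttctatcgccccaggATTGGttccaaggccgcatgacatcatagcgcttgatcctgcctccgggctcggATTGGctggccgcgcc
The Elovl6 stretch held 1 AGGTCA, read on the opposite strand 162 bases before the annotated start, and none of the other letters. The Elovl5 stretch held 1 E-box, 160 bases before the start, and 2 NF-Y boxes, 70 and 16 bases before it. Past the end of the printed stretch, the 300-base Elovl5 window also held 1 TGACGTCA, just after the RefSeq start, and with it 2 matches to TGACG, 1 on each strand. Of all 32851 windows of 300 bases, 16.3% held AGGTCA, 7.15% CACGTG, 37.4% CCAAT and 20.8% TGACG. A direct repeat of AGGTCA with 4 bases between the copies was found in 0.0152% of the windows and in none of the 8 windows of the 6 matched elongases. TGACGTCA, which contains TGACG, was found in 1.79% of the windows. These matches are descriptions of letters, not of binding.

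Levels of different genes were compared only per kilobase, as CPM divided by the length of all annotated exons of the gene. On this scale Elovl6 led the family in 47 of 59 mice, Elovl3 in 10 and Elovl5 in 2. The 2 mice led by Elovl5 were BATKO mice on HFD, where Elovl5 held 42.4% ± 3.8 and Elovl6 41.6% ± 1.2 of the summed level (SD, n = 3). Among WT PTU controls, Elovl3 held 50.5% ± 9.7 (SD, n = 4) of the summed CPM per kilobase, Elovl6 33.7% ± 6.6 and Elovl5 14.8% ± 3.2. At 24 h of TH these shares were 12.6% ± 6.1, 63.2% ± 6.4 and 23.1% ± 5.4 (n = 4). For CTRL mice at 30 °C the share of Elovl3 was 0.369% ± 0.38 (n = 4), and at 4 °C it was 62.0% ± 4.0 (n = 3). Elovl1 stood at 2.34 to 7.53 CPM per kilobase in the group means, below Elovl3 in every group of the hormone experiment and at 4 °C, and above it in the group means at 30 °C and on both diets. The group means of Elovl2, Elovl4 and Elovl7 did not exceed 0.0883, 0.689 and 0.216 CPM per kilobase, and their highest counts in any mouse were 7, 39 and 10 reads. In CTRL mouse 19 at 30 °C Elovl7, at 0.0597 CPM per kilobase, stood above Elovl3, at 0.0405. The lengths are unions over all isoforms, so that a gene read mostly as a short isoform is understated.

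**Figure D1:**
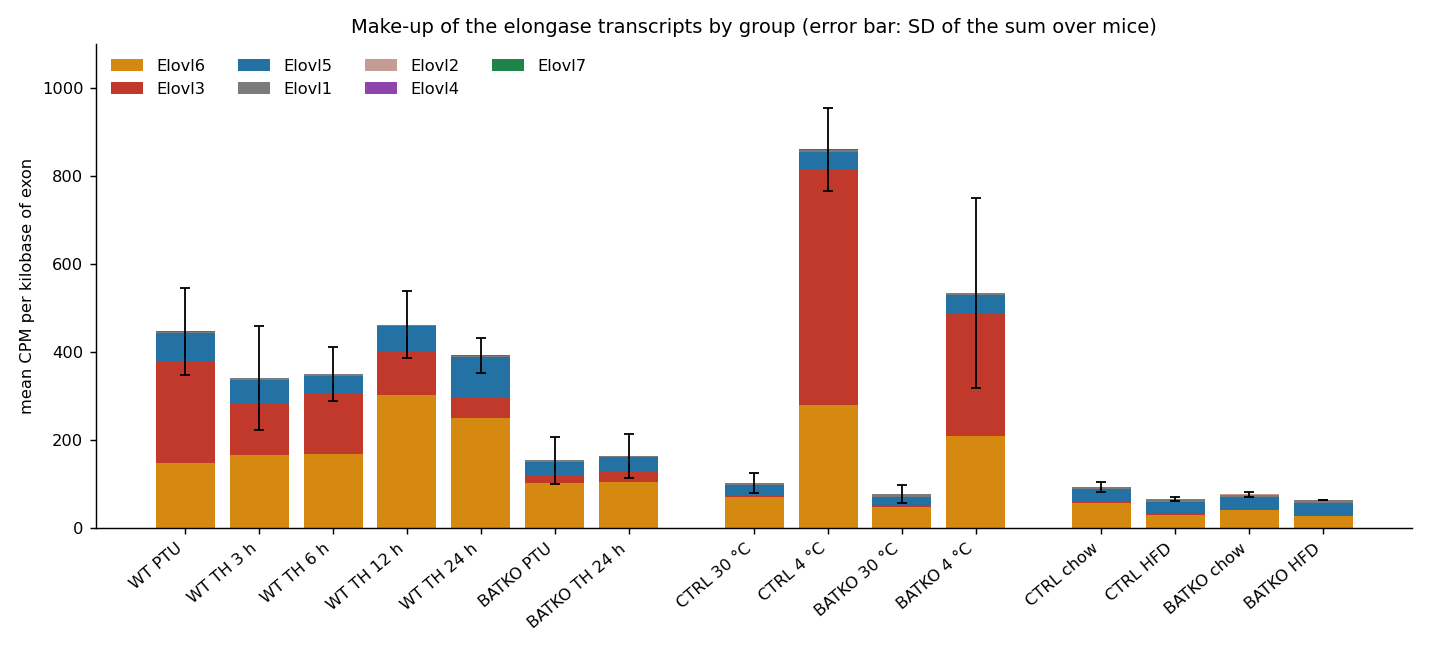
Mean CPM per kilobase of exon of each elongase, stacked by group, with the SD over mice of the sum of all 7 as the error bar; the 3 experiments were normalized separately. The red Elovl3 part is largest in CTRL mice at 4 °C, followed by BATKO mice at 4 °C and WT PTU controls, and is hardly visible at 30 °C or on either diet.

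Calls were made with edgeR's quasi-likelihood test over all genes with a mean normalized count above 10, adjusted by Benjamini-Hochberg over all of them, at a threshold of 0.05. Of the 7 members, 5 passed this filter in the hormone experiment and 4 in the others. Elovl2 and Elovl7 never passed, and Elovl4 passed only in the hormone experiment. In the temperature experiment Elovl3 passed only through its level at 4 °C. The labels do not tie mice to litters or cages. Fold changes are given on the log2 scale with their standard error (SE).

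The first comparison asked how the elongases of hypothyroid WT mice respond over the first day of TH. Elovl6 rose at 12 h and stayed up at 24 h, while Elovl3 fell, with its lowest levels at 24 h. Elovl5 fell at 6 h and was above the controls at 24 h, and Elovl1 fell at 12 h.

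Elovl6 stood at 793, 905, 951 and 1145 CPM in the PTU controls and at 1580, 1892, 2115 and 2212 CPM at 12 h of TH. Every 12 h mouse was above every control. The log2 fold change was 1.05 ± 0.16 (adjusted p = 5.02e-05), a fold of 2.07. At 24 h the mice stood at 1234, 1462, 1859 and 1869 CPM, again all above those of PTU mice, and the log2 fold change was 0.76 ± 0.16 (adjusted p = 0.000992). Neither earlier time passed the test: the log2 fold change was 0.15 ± 0.16 at 3 h and 0.18 ± 0.16 at 6 h, where the 4 mice lay closely together, between 1027 and 1146 CPM. Elovl6 was thus first called at 12 h. It kept both calls without any single mouse, at 0.97 to 1.16 at 12 h and 0.67 to 0.87 at 24 h.

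Elovl3 stood at 241, 454, 502 and 624 CPM in the PTU controls and at 57.6, 77.1, 103 and 144 CPM at 24 h of TH. The groups did not overlap, and the log2 fold change was -2.25 ± 0.48 (adjusted p = 0.00108), a level 4.77-fold lower. Leaving out any one mouse left it between -2.53 and -2.06. At 3 h the mice stood at 95.3, 121, 216 and 497 CPM, at 6 h at 167, 218, 273 and 406 CPM, and at 12 h at 80.7, 154, 209 and 342 CPM. Means of these groups were all below the control mean, but each group overlapped the controls. Their log2 fold changes of -0.98 ± 0.46, -0.79 ± 0.46 and -1.20 ± 0.46 did not pass the test (adjusted p = 0.19, 0.221 and 0.062). The 497 CPM of 3 h mouse B11 stood alone: without it the log2 fold change at 3 h was -1.69 (adjusted p = 0.0216). In mouse B11 the summed brown adipocyte markers stood at 14234 CPM against 9037 to 12054 CPM in the other 3, and the summed immune markers at 20.5 against 9.69 to 11.3 CPM. Its adipocyte markers summed to 8351 against 9001 to 10023 CPM, its sebaceous or skin markers, mostly Mc5r, to 6.51 against 2.36 to 4.66 CPM and its endothelial markers to 335 against 317 to 318 CPM, and mitochondrial genes held 45.2% of its counts against 49.9%. Their part in its Elovl3 level was not tested. At 12 h the call also turned on single mice, with an adjusted p from 0.0213 to 0.166 when 1 mouse was left out, and was made without B4, B7, B11, B19 or B27. With all mice, Elovl3 at 12 h was called without a filter on low counts (adjusted p = 0.00476) and on the compared groups alone (adjusted p = 0.0303).

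Elovl5, the elongase of polyunsaturated chains, stood at 175, 231, 246 and 255 CPM in the controls and at 122, 135, 158 and 177 CPM at 6 h. The fall was called, at -0.63 ± 0.16 on the log2 scale (adjusted p = 0.00706), although the groups touched, since the lowest control lay just under the highest 6 h mouse. At 24 h it stood at 260, 293, 298 and 415 CPM, above every control, with a log2 difference of 0.48 ± 0.16 (adjusted p = 0.0275). That rise is the less certain of both: without control B2 or without 24 h mouse B28 its adjusted p missed the threshold, with a highest value of 0.129 and a lowest log2 fold change of 0.33. The changes at 3 h and 12 h, -0.35 ± 0.16 and -0.18 ± 0.16, were not called.

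Elovl1 stood between 9.76 and 12.4 CPM in the controls and between 6.19 and 9.06 CPM at 12 h, without overlap. The log2 fold change there was -0.48 ± 0.14 (adjusted p = 0.0137), but did not stay past the threshold without 12 h mouse B21 (adjusted p = 0.0638). At the other times its log2 fold change lay between -0.27 and 0.15, with no call. Elovl4 was read at 8 to 20 counts a mouse in the controls, at 1 to 9 counts at 12 h and at 18 to 39 counts at 24 h. Its log2 fold changes of -1.60 ± 0.60 at 12 h (adjusted p = 0.0541) and 0.88 ± 0.45 at 24 h (adjusted p = 0.14) were not called. The first was called by DESeq2 (adjusted p = 0.0257) and by edgeR without a filter on low counts (adjusted p = 0.0304). The 12 h value ran from -2.36, without 12 h mouse B19, to -1.32, and was called when any one of WT mice B4, B7, B11, B19, B27 or B28 was left out (lowest adjusted p = 0.0224). Elovl7 had 1 to 8 counts in the controls and 6 to 10 at 12 h, and Elovl2 never more than 3 counts in any mouse of this experiment. For Elovl2 a change was not detectable at this depth. Without a filter, Elovl7 had a log2 fold change of 1.35 ± 0.50 at 12 h (adjusted p = 0.0696), which was not called.

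Of the 5 elongases tested in WT mice, none was called at 3 h. There was 1 call at 6 h, and there were 2 at 12 h and 3 at 24 h. At 3 h, where none was called by edgeR, 2 had an unadjusted p under 0.05 and DESeq2 called 0. Of all genes tested, 9.12% were called at 3 h. The share rose to 23% by 6 h, to 25.7% by 12 h and to 32.7% by the last time, so that the number of elongases grew alongside that of genes in general. The 4 time points share the same 4 control mice.

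**Figure D2:**
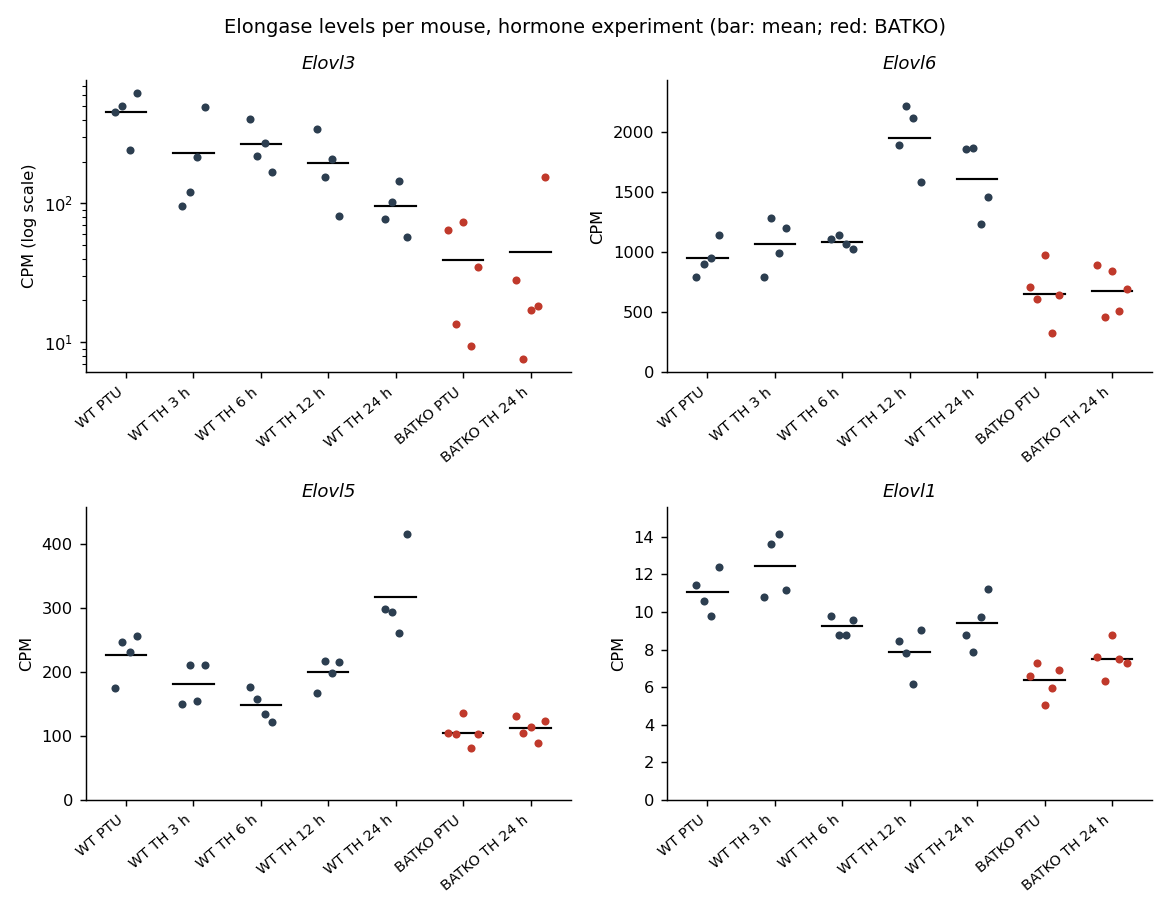
CPM per mouse of 4 elongases by group in the hormone experiment, with Elovl3 on a log axis and the others on linear axes from 0; each point is a mouse, the bar is the mean, and BATKO mice are in red. Elovl6 stands above all controls at 12 h and 24 h, and Elovl3 below all controls at 24 h.

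Of 4 genes known to respond to thyroid hormone, 3 rose at 3 h, 6 h and 12 h in the same WT mice and 4 at 24 h. Slco4a1, a transporter, ran from 0.0914 to 0.264 CPM in the controls and from 28.2 to 32.6 CPM at 24 h. Hr, a corepressor, had a log2 fold change of 3.57 ± 0.31 at 3 h and 4.56 ± 0.31 at 24 h, and Klf9, a transcription factor, of 1.75 ± 0.10 and 1.31 ± 0.10, so that these genes were called at 3 h, when Elovl6 was not.

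Genes of the other steps of the elongation cycle were called only at 24 h, in both directions. Of 7 partner genes, 6 were tested and none was called at 3 h, 6 h or 12 h. At 24 h 2 rose and 2 fell, with a median log2 fold change of -0.36 against 0.01 over all genes. Of all genes, 9.12%, 23%, 25.7% and 32.7% were called at these 4 times, beside which all counts in this paragraph stand. Hacd2, a dehydratase of the cycle, fell from 320 ± 69 to 175 ± 26 CPM (SD, n = 4 each; log2 fold change -0.87 ± 0.18, adjusted p = 0.000709), and Hacd1 fell by 0.51 ± 0.18. Tecr, the enoyl reductase, rose by 0.44 ± 0.17. Among genes of malonyl-CoA and palmitate supply, 4 of 9 fell at 6 h, led by Acly, the citrate lyase, at -1.49 ± 0.29. At 12 h 1 rose (Mid1ip1, 1.14 ± 0.37) and 2 fell, and at 24 h 2 rose, Acacb at 0.70 ± 0.17 and Thrsp at 0.68 ± 0.21, and 1 fell, the citrate carrier Slc25a1, at -1.20 ± 0.16. At 12 h, when Elovl6 rose, Mid1ip1 was thus the only one of these 9 genes called in the same direction.

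Desaturases, which insert double bonds into the same chains, had 1 fall at 6 h (Scd2, -1.27 ± 0.43) and 1 rise at 24 h (Fads2, 1.15 ± 0.24) among 6 tested, and no call at 3 h or 12 h. Ceramide synthases, which use very long chains, had no call before 24 h, when Cers5 fell by 0.38 ± 0.12. Peroxisomal genes, which shorten such chains, had 2 rise and 1 fall at 3 h, 3 rise at 6 h, 5 rise and 1 fall at 12 h, and 3 rise and 4 fall at 24 h, of 10 tested, where 9.12%, 23%, 25.7% and 32.7% of all genes were called. Acaa1a, a thiolase, rose by 1.12 ± 0.14 at 24 h and Abcd3, a transporter, by 1.04 ± 0.09. Of 12 regulators of lipid synthesis, 3 rose and 3 fell at 24 h. Mlxipl, the carbohydrate-sensing factor ChREBP, rose by 0.83 ± 0.19 at 12 h and 1.25 ± 0.19 at 24 h, and Insig1, which retains SREBP in the endoplasmic reticulum, fell by 1.35 ± 0.22 at 3 h and 1.31 ± 0.22 at 24 h.

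Fat cell markers moved with time as well. The summed level of 5 adipocyte markers was 9636 to 10737 CPM in the controls and 5512 to 5930 CPM at 24 h, with 4 of the 5 called lower, and that of 6 brown adipocyte markers was 5793 to 7901 against 8645 to 16266 CPM. The latter sum mostly followed Ucp1. Its median over the 30 mice of this experiment was 7367 CPM, against 889 CPM for Cidea, the next highest of the 6. Muscle markers summed to 59.2 to 596 CPM in the controls and 244 to 1048 CPM at 24 h. The 4 sebaceous or skin markers summed to 7.06 to 16.7 CPM in the controls and 1.63 to 2.78 CPM at 24 h, without overlap. Krt5 was at 0 in all mice of this experiment, Krt14 at 0 in 29 of 30 and Awat2 at most 0.513 CPM. These sums thus mostly followed Mc5r. At 6 h the brown adipocyte markers summed to 11395 to 13511 CPM and the sebaceous or skin markers to 3.27 to 5.36 CPM, neither overlapping the controls. At 12 h the adipocyte markers summed to 6177 to 8221 CPM, the brown adipocyte markers to 10025 to 17669 CPM and the sebaceous or skin markers to 2.20 to 4.18 CPM, none overlapping the controls. Endothelial markers were then at 218 to 276 CPM against 288 to 308 CPM, and nerve and Schwann cell markers at 56.2 to 65.9 against 66.9 to 77.0 CPM. The part of these cell types in the elongase changes was not tested. Without the mice above 1000 CPM of muscle markers, B12 and B26 in this experiment, the 24 h changes were -2.30 for Elovl3, 0.68 for Elovl6 and 0.51 for Elovl5, and no call of an elongase changed.

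The next comparison asked whether BATKO mice respond in the same way at 24 h. No elongase was called among the 5 tested. Elovl6 stood between 328 and 975 CPM in BATKO PTU controls and between 457 and 894 CPM after TH, with a log2 fold change of 0.06 ± 0.20 (95% interval -0.34 to 0.45). Elovl5 had a log2 fold change of 0.10 ± 0.15 (interval -0.19 to 0.38) and Elovl1 of 0.24 ± 0.12 (interval -0.01 to 0.48). Elovl3 stood at 9.36, 13.6, 34.8, 64.6 and 73.0 CPM before and at 7.57, 17.0, 18.3, 27.99 and 154 CPM after TH, a log2 fold change of 0.19 ± 0.61. A single mouse, 15, holds its sign: without it the log2 fold change was -1.16, still with no call. None of the 14168 genes tested was called by edgeR (0%) and 0 by DESeq2, while 677 had an unadjusted p under 0.05. Among the elongases no unadjusted p was under 0.05. Slco4a1 stood between 0 and 2.49 CPM before and between 0.07 and 6.29 CPM after TH in these mice.

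The difference of both responses was tested as an interaction. It was called for none of the 5 elongases, against 12.3% of all genes, though 3 elongases had an unadjusted p under 0.05 and DESeq2 called 0. The BATKO response minus the WT response was 2.45 ± 0.91 for Elovl3 (adjusted p = 0.0759), -0.70 ± 0.30 for Elovl6 (adjusted p = 0.13) and 0.46 ± 0.18 for Elovl1 (adjusted p = 0.096). These differences rest on few mice. For Elovl3 the value ran from 1.08 without BATKO TH mouse 15 to 2.80, and passed the threshold without BATKO TH mouse 8 (adjusted p = 0.0393). With all mice but no filter on low counts, Elovl3 was called (2.45 ± 0.68, adjusted p = 0.021). For Elovl6 the value ran from -0.87 to -0.51 and passed without BATKO PTU mouse 11 (adjusted p = 0.0249). A call of Elovl6 in WT and none in BATKO is therefore not by itself a difference between them. In the same interaction Hr (-4.07 ± 0.59), the desaturase Fads2 (-1.21 ± 0.31) and the regulators Insig1 (1.32 ± 0.38), Ppard (-1.26 ± 0.24) and Mlxipl (-1.09 ± 0.26) were among the genes called.

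In PTU controls all 5 tested elongases were called lower than in WT, with log2 differences of -3.54 ± 0.67 for Elovl3, -1.50 ± 0.52 for Elovl4, -1.11 ± 0.16 for Elovl5, -0.79 ± 0.13 for Elovl1 and -0.54 ± 0.21 for Elovl6. Elovl4, with 1 to 13 reads in BATKO mice of this experiment, passed the filter only through the WT mice, so that its call is no support for the count of 5, and it was tested in 28 of the 30 fits without 1 mouse. BATKO and WT mice did not overlap in Elovl1, Elovl3 or Elovl5, nor in Elovl2, which had 0 to 3 reads a mouse. The share of all genes without overlap was not counted, and 70.3% of genes were called in this comparison. At 24 h of TH Elovl5 was lower by 1.49 ± 0.16, Elovl6 by 1.24 ± 0.21 and Elovl1 by 0.33 ± 0.13, and Elovl3 was not called (-1.09 ± 0.64, adjusted p = 0.127). Elovl4, with 1 to 8 reads in these BATKO mice, had a log2 difference of -2.88 ± 0.51 under the same limit of the filter. Without BATKO TH mouse 15, the difference of Elovl3 was -2.46 (adjusted p = 0.000408). The Elovl6 call in PTU controls was lost without WT mouse B5 or BATKO mouse 11, that of Elovl4 without B5, and that of Elovl1 at 24 h without WT mouse B27 or B28 or BATKO mouse 8. Elovl1 at 24 h was also not called by DESeq2, without a filter on low counts or on the compared groups alone (adjusted p = 0.0597, 0.0665 and 0.0703). Elovl7, below the filter, had 4 to 8 counts in WT and 0 to 4 in BATKO mice at 24 h, and without a filter its log2 difference was -2.08 (adjusted p = 0.00552).

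These differences stand against a very high background: 70.3% of all 14168 genes tested were called between the genotypes in PTU controls, and 69.7% at 24 h. BATKO libraries of this experiment held 13593987 to 18073627 counts and WT libraries 7805938 to 14615534. Genotype and whatever else set these libraries apart cannot be told apart. The brown adipocyte markers, whose sum mostly followed Ucp1, summed to 1675 to 2584 CPM in BATKO PTU controls against 5793 to 7901 CPM in WT. The sebaceous or skin markers summed to 1.28 to 3.36 against 7.06 to 16.7 CPM and the endothelial markers to 373 to 418 against 288 to 308 CPM, both without overlap. The WT sums of the sebaceous or skin list were nearly all Mc5r, since Krt5, Krt14 and Awat2 did not exceed 0.513 CPM in this experiment. At 24 h the brown adipocyte markers stood at 1844 to 3422 against 8645 to 16266 CPM, the adipocyte markers at 9047 to 13843 against 5512 to 5930 CPM, the endothelial markers at 380.0 to 520 against 276 to 309 CPM, and the nerve and Schwann cell markers at 36.7 to 56.3 against 63.6 to 88.5 CPM, again without overlap. The part of these cell types in the elongase levels was not tested. Of the cycle partners, 4 of 6 were lower and 2 higher in PTU controls, led by Hacd2 (-2.02 ± 0.19), Hsd17b12 (-1.36 ± 0.15) and Hacd4 (-1.11 ± 0.32), and at 24 h 3 were lower and 0 higher. Acaca, the acetyl-CoA carboxylase, was higher by 2.99 ± 0.28 and 2.93 ± 0.28, in contrast to the elongases. Among the other lists, 3 desaturases were higher and 0 lower in PTU controls, 1 ceramide synthase was higher and 3 lower, and 4 regulators were higher and 5 lower.

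The temperature experiment asked how the elongases of BAT answer to cold. Elovl6 and Elovl5 rose in CTRL and in BATKO mice, and Elovl1 did not pass the test in either. Elovl3 was called higher in both as well, but was tested only because of its level at 4 °C, so that its call is no support for a count of elongases that rose. In CTRL mice 49.1% of the 13257 genes tested were called and in BATKO mice 40.2%, with 3507 higher and 2997 lower in CTRL.

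Elovl3 was close to absent in the warmth and had 2290 reads or more in every mouse in the cold. CTRL mice at 30 °C stood at 0.0799, 0.40, 0.665 and 2.24 CPM, which were 1, 5, 8 and 23 reads. CTRL mice at 4 °C stood at 912, 1062 and 1188 CPM, from 8086 to 9889 reads. The log2 fold change was 10.33 ± 0.77 (95% interval 8.82 to 11.85, adjusted p = 6.94e-08). For BATKO mice the levels were 0.261, 0.271, 0.464, 1.18 and 1.40 CPM at 30 °C and 215, 407, 503 and 1095 CPM at 4 °C. Their log2 fold change was 9.59 ± 0.68 (interval 8.27 to 10.92, adjusted p = 1.53e-07). At so few reads in the warmth the size of the fold is loose: leaving out 1 mouse gave 9.94 to 11.39 in CTRL and 9.02 to 9.97 in BATKO. Without the mice above 1000 CPM of muscle markers it was 9.90 in CTRL and 8.75 in BATKO mice.

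Elovl6 stood at 315, 399, 558 and 570.4 CPM in CTRL mice at 30 °C and at 1599.6, 1663 and 2122 CPM at 4 °C. It rose by 1.96 ± 0.27 on the log2 scale (adjusted p = 1.95e-05), a fold of 3.90. In BATKO mice it stood at 225 to 473 CPM and 1093 to 1479 CPM, with a log2 fold change of 2.09 ± 0.24 (adjusted p = 6.59e-06). The ranges lay far apart in both genotypes. Elovl5 stood at 72.2 to 106 CPM in CTRL mice at 30 °C and at 120, 148 and 176 CPM at 4 °C, and at 69.6 to 89.0 and 117 to 169 CPM in BATKO mice. Its log2 fold changes were 0.72 ± 0.17 (adjusted p = 0.00238) and 0.83 ± 0.15 (adjusted p = 0.000389), again without overlap.

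Elovl1 stood at 11.6 to 14.9 CPM in the warmth and 10.8 to 15.5 CPM in the cold in CTRL mice. Its log2 fold change was 0.02 ± 0.21 (interval -0.39 to 0.43), and in BATKO mice -0.29 ± 0.18 (interval -0.65 to 0.07). Elovl4 was below the filter. Its counts were 0, 1, 2 and 4 in CTRL mice at 30 °C and 8, 9 and 14 at 4 °C, and at most 3 in BATKO mice at 30 °C and 3 to 15 at 4 °C, and by CPM neither pair of groups overlapped. With no filter on low counts, its log2 fold change was 2.87 ± 0.71 in CTRL (adjusted p = 0.00285) and 2.62 ± 0.67 in BATKO (adjusted p = 0.00539). Elovl2 had at most 7 counts and Elovl7 at most 6 in any mouse, and neither was called even without the filter.

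**Figure D3:**
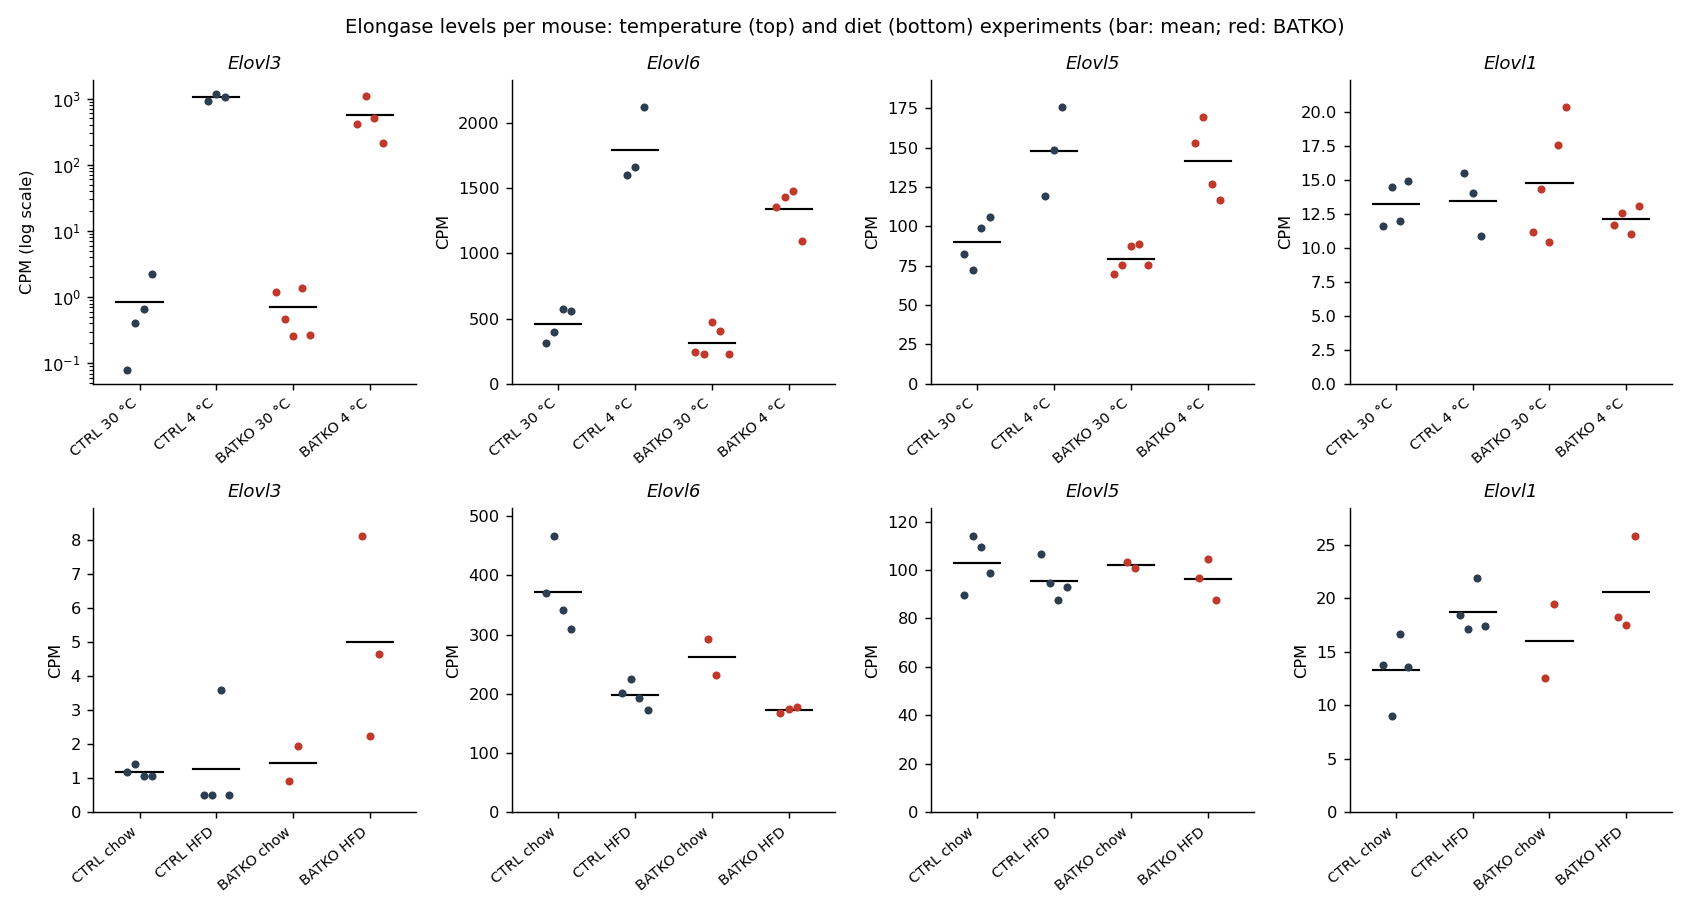
CPM per mouse of 4 elongases by group in the temperature experiment (top) and the diet experiment (bottom), with Elovl3 at the top on a log axis and all others on linear axes from 0; points are mice, bars are means and BATKO mice are red. Elovl3, Elovl6 and Elovl5 separate fully by temperature, and Elovl6 separates by diet. The share of all genes that separate so was not counted. By temperature, 49.1% of all genes were called in CTRL and 40.2% in BATKO mice.

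BATKO and CTRL mice did not differ by any called elongase at either temperature. At 4 °C, where 2.16% of all genes were called, the difference was -0.93 ± 0.52 for Elovl3 (interval -1.95 to 0.10), -0.42 ± 0.27 for Elovl6 (interval -0.94 to 0.10) and -0.07 ± 0.17 for Elovl5 (interval -0.40 to 0.27). In Elovl6 all 4 BATKO mice stood below every CTRL mouse, at 1093 to 1479 against 1600 to 2122 CPM, without a call. How many of all genes separate so was not counted. Of the 4 BATKO mice, 3 stood below every CTRL mouse in Elovl3, at 215, 407 and 503 CPM, and mouse 8 stood within the CTRL range at 1095 CPM. Without mouse 8 the difference of Elovl3 was -1.51, and without the mice above 1000 CPM of muscle markers, BATKO mice 8 and 11 among them, it was -1.79 (adjusted p = 0.161), still with no call. At 30 °C 0.00754% of genes were called, and Elovl6 differed by -0.55 ± 0.23 (interval -1.01 to -0.09, adjusted p = 0.542). The test of the difference in cold response called 1.12% of genes and none of the 4 elongases: Elovl3 had -0.74 ± 0.93, Elovl6 0.13 ± 0.36 and Elovl5 0.11 ± 0.23. Leaving out 1 mouse moved the Elovl3 value from -1.81, without CTRL mouse 22 at 30 °C, to -0.35, without CTRL mouse 19, and without the mice above 1000 CPM of muscle markers that of Elovl6 was -0.30, with no call in any of these fits. The number of elongases with an unadjusted p under 0.05 was 0 at 4 °C, 1 at 30 °C and 0 for the difference in response, and DESeq2 called 0 in each.

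Of the 6 tested partners of the elongases in the cycle, 2 rose and 1 fell in the cold in CTRL mice, and 3 rose in BATKO mice, shares near the 49.1% and 40.2% of all genes called. Hsd17b12, the ketoacyl reductase that all 7 elongases rely on, went from 109 ± 22 CPM at 30 °C (SD, n = 4) to 728 ± 58 CPM at 4 °C (n = 3) in CTRL mice, a log2 fold change of 2.74 ± 0.18 (adjusted p = 2.94e-08). Hacd2 went from 38.0 ± 7.9 to 515 ± 6.3 CPM (3.76 ± 0.23, adjusted p = 1.37e-08). Hacd4, another dehydratase, fell by 1.25 ± 0.27. Tecr, of the last step, was not called in either genotype. In BATKO mice Hacd2 rose by 3.14 ± 0.20, Hsd17b12 by 2.37 ± 0.16 and Hacd1 by 1.04 ± 0.25.

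Of the precursor supply genes, 7 of 9 rose in the cold in CTRL and 7 of 9 in BATKO mice, with a median log2 fold change of 1.12 in each, against -0.01 and -0.02 over all genes. Of all 13257 genes tested, 3507 were called higher and 2997 lower in CTRL mice, and 2832 higher and 2503 lower in BATKO mice. In CTRL mice Thrsp rose by 1.93 ± 0.30, Acly by 1.67 ± 0.50 and Me1, the malic enzyme, by 1.64 ± 0.42. Of 10 peroxisomal shortening genes, 6 were called higher in CTRL with 1 lower and 6 in BATKO with 0 lower. The rises in CTRL were led by Acaa1b (3.37 ± 0.40) and Abcd3 (2.09 ± 0.19), against a fall of Abcd2 (-2.12 ± 0.37). Desaturases split. In CTRL mice Scd2, which desaturates stearate, rose by 2.11 ± 0.39, while Fads3 fell by 1.71 ± 0.31 and Fads1 by 1.19 ± 0.16. Fads1 acts on the polyunsaturated chains that are also lengthened by ELOVL5. In BATKO mice 2 desaturases rose and 2 fell. Of 4 ceramide synthases tested, 2 fell in CTRL mice, Cers6 by 1.64 ± 0.39 and Cers5 by 0.41 ± 0.14, and 1 in BATKO mice. Among 12 regulators, 6 rose and 1 fell in CTRL mice, with Nr1h3, the oxysterol receptor LXRα, at 1.86 ± 0.26, Mlx, the partner of ChREBP, at 1.51 ± 0.13 and Ppara at -1.16 ± 0.38, and 5 rose and 1 fell in BATKO mice.

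Brown adipocyte markers summed to 477 to 2173 CPM at 30 °C and 15563 to 19100 CPM at 4 °C in CTRL mice, and all 6 were called higher. The adipocyte markers summed to 6423 to 7867 and 11162 to 12606 CPM, and the blood and immune markers to 16.6 to 24.5 and 10.7 to 12.9 CPM. In BATKO mice the brown adipocyte markers summed to 1021 to 2034 CPM at 30 °C and 8370 to 15801 CPM at 4 °C, the adipocyte markers to 6513 to 8501 and 11344 to 14451 CPM, and the sebaceous or skin markers, in the cold mostly Mc5r, to 0.557 to 2.26 and 2.73 to 6.39 CPM, while the blood and immune markers overlapped. Muscle markers were above 1000 CPM in 4 mice at 30 °C, reaching 7711 CPM, and in 2 BATKO mice at 4 °C. The part of these cell types was not tested, but without these 6 mice all elongase calls of this experiment stood. It did lower the number of genes called in BATKO mice from 5335 to 2209.

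**Figure D4:**
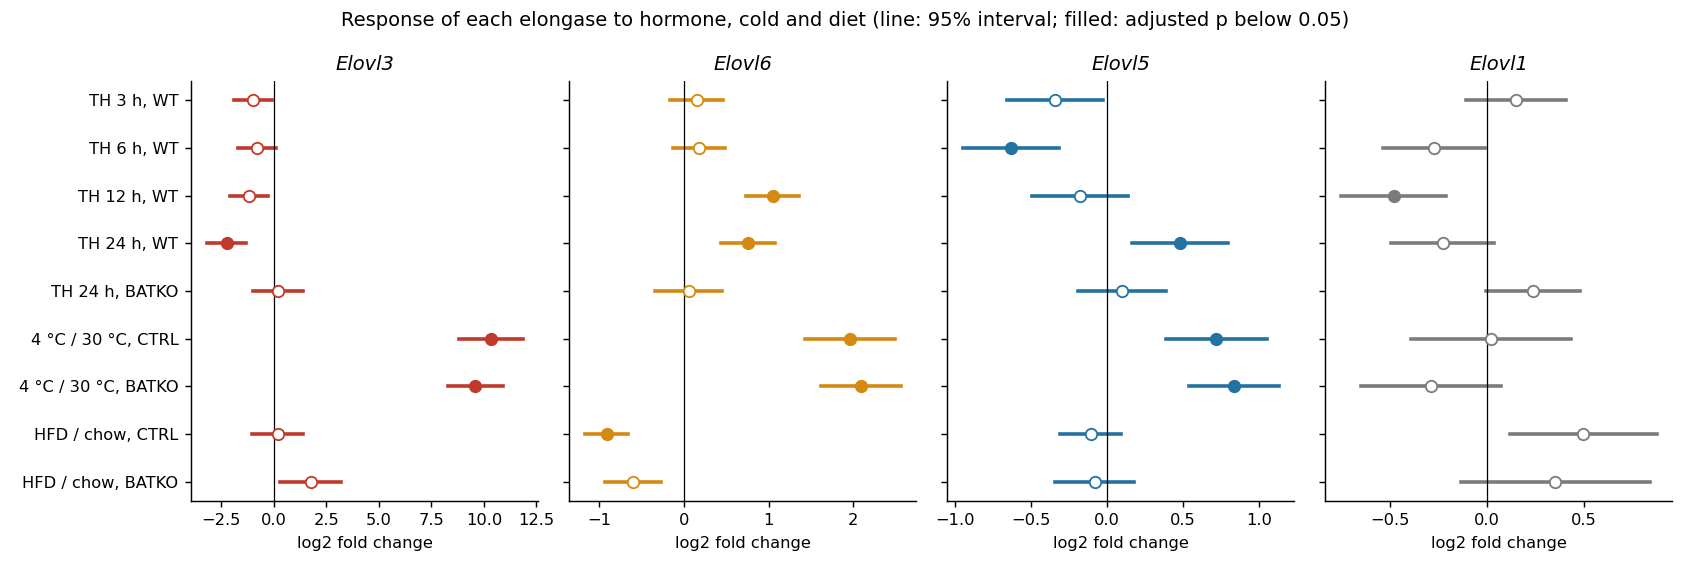
Log2 fold change of 4 elongases (x axis, its own range in each panel) in 9 comparisons (y axis), with the 95% interval as a line and a filled point where the adjusted p was below 0.05. Elovl6 is called up at 12 h and 24 h of TH and in the cold and down on HFD, while Elovl3 is called down at 24 h of TH and up in the cold.

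The diet experiment asked what a short HFD does. Elovl6 fell in CTRL mice and no other elongase was called. It stood at 309.6, 342, 371 and 467 CPM on chow and at 172, 193, 201 and 225 CPM on HFD, without overlap, with a log2 fold change of -0.91 ± 0.13 (adjusted p = 0.00225), a level 1.88-fold lower. Of all 12922 genes tested 3.93% were called, and Elovl6 ranked 31 by p. The value stayed between -1.002 and -0.78 whichever mouse was left out. Elovl1 stood higher on HFD in every mouse, at 17.1 to 21.9 against 9.001 to 16.7 CPM, but was not called (0.50 ± 0.19, adjusted p = 0.16). Elovl5 had a log2 fold change of -0.11 ± 0.10 (interval -0.31 to 0.09). In DESeq2 the count of genes called was 871 against 508 in edgeR, with 1 elongase called by each.

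In BATKO mice 0.0696% of genes, 9 in all, were called and no elongase. Elovl6 stood at 232 and 292 CPM on chow and 167, 174 and 177 CPM on HFD, again apart, with a log2 fold change of -0.60 ± 0.17 (adjusted p = 0.143). An unadjusted p under 0.05 was found for 2 elongases, Elovl6 and Elovl3. Elovl6 was called by DESeq2 (adjusted p = 0.0283) and by edgeR without a filter on low counts (adjusted p = 0.0456). With 2 mice on chow, this comparison has the least replication of all. The difference of both responses was 0.31 ± 0.21 for Elovl6 (interval -0.11 to 0.73), and 0% of genes were called, with 737 at an unadjusted p under 0.05, 0 of them elongases, and 0 genes by DESeq2.

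Elovl3 was low on both diets, at 1.05 to 1.40 CPM in CTRL mice on chow and at 0.508, 0.502, 0.516 and 3.60 CPM on HFD, where mouse 10 stood apart. The log2 fold change in CTRL mice was 0.17 ± 0.63 with it and -1.19 without it, with no call in either case. In BATKO mice it stood at 0.927 and 1.95 CPM on chow and at 2.24, 4.64 and 8.13 CPM on HFD, which were 26 to 57 reads. On HFD, BATKO and CTRL differed by 1.88 ± 0.59 in Elovl3 (interval 0.72 to 3.03, adjusted p = 0.883, and 0.0166 without a filter on low counts). Without CTRL mouse 10 this was 3.23 (adjusted p = 0.0318). In that mouse the immune markers summed to 65.7 CPM against 14.7 to 16.7 CPM in the other 3, and the part of this in its Elovl3 level was not tested. With the main filter and all mice, no elongase was called between BATKO and CTRL mice, and 0% of all genes were called on HFD and 0% on chow. Leaving out 1 mouse gave 0 to 10 genes on HFD and 0 to 117 on chow, both highest without CTRL HFD mouse 10. At an unadjusted p under 0.05 there were 690 and 1022 genes, 1 elongase among them each time, and DESeq2 called 12 and 31 genes and 0 elongases. On chow, Elovl6 differed by -0.51 ± 0.16 (interval -0.83 to -0.19, adjusted p = 0.395).

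Of 9 genes of malonyl-CoA and palmitate supply, 6 fell and 0 rose on HFD in CTRL mice, where 3.93% of all genes were called, with a median log2 fold change of -0.61 against 0.01 over all genes. Acly fell by 1.67 ± 0.22 (adjusted p = 0.00125) and Acaca by 1.08 ± 0.24. Fasn, the fatty acid synthase, had a log2 fold change of -1.496 ± 0.25. No call was made among 6 cycle partners, 5 desaturases, 4 ceramide synthases and 9 peroxisomal genes. With 3.93% of all genes called, lists this short would hold few calls or none. Among regulators Pparg, the master factor of fat cells, rose by 0.43 ± 0.11 and Ppara fell by 0.52 ± 0.13. None of the pathway lists had a call in BATKO mice or between the genotypes on either diet, where 0.0696%, 0% and 0% of all genes were called. Muscle markers summed to 0.848 to 2035 CPM on chow and 0.89 to 517 CPM on HFD in CTRL mice, and the Elovl6 call stood without CTRL chow mice 3 and 4, which were above 1000 CPM.

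The members did not vary as 1 block. Over the 20 WT mice of the hormone experiment, Pearson's r of log2 CPM was -0.36 between Elovl3 and Elovl6, 0.42 between Elovl5 and Elovl6 and -0.63 between Elovl1 and Elovl6. Over the 16 mice of the temperature experiment it was 0.94 between Elovl3 and Elovl6, 0.91 between Elovl3 and Elovl5 and 0.94 between Elovl5 and Elovl6, where 2 temperatures set most of the spread. These values share library, depth and tissue piece and are given as descriptions.

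Genes whose log2 CPM followed a member most closely over the 20 WT mice were sought among 9207 genes. For Elovl3 these were Atp6v1h, a subunit of the vacuolar proton pump (r = 0.91), and Bnip3l, a mitophagy receptor (r = 0.86). Both also followed it over the temperature mice, at r = 0.96 and 0.77. For Elovl6 they were Gm11295, a processed pseudogene (r = 0.91), and the calcium channel gene Itpr1 (r = 0.89), with 0.80 and 0.37 over the temperature mice. For Elovl5 they were Tgfbr2 (r = 0.85) and Amotl1 (r = 0.85), whose r turned to -0.67 and -0.87 over the temperature mice. For Elovl1 they were Rfxank (r = 0.87) and Snx12 (r = 0.82), at 0.61 and 0.33 there. Exons of Rfxank share 33.8% of their bases with Nr2c2ap on the opposite strand, so that its reads are uncertain.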

How the data were processed

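Gene counts of BAT from 59 mice were taken from 3 deposited tables, 1 per experiment. The raw counts were made by the authors, who aligned reads of a Lexogen SENSE total RNA library (NextSeq 500) to GRCm38 with Bowtie (Bowtie2 2.3.2.2 in the submitters' processing notes, which also name mm10 and DESeq2), removed reads of low mapping quality and counted with htseqcount. Gene annotation and strand setting are not given in the sources used here. Columns were matched to mice by their names, and 0 columns stayed unmatched. Rows with symbols turned into dates numbered 14 and held 0.0323% of counts.

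A gene was tested if its normalized counts averaged more than 10 across the fitted mice. Calls came from edgeR's quasi-likelihood test (edgeR 4.0.16, limma 3.58.1, R 4.3.3; TMM, Benjamini-Hochberg, threshold 0.05, no fold threshold). WT time points were fitted on the 20 WT mice, other hormone comparisons on all 30, and the temperature and diet comparisons on their 16 and 13 mice. SEs were derived from the F statistic, and 95% intervals use the normal quantile. CPM used TMM-adjusted library sizes within each table, so that levels across tables are only set side by side. DESeq2 1.42.0, other filters, normalizations and sample sets, and leaving out each mouse were alternatives. Steps were tested on simulated data.

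All elongases are named, and from each pathway list at most the 3 called genes of largest change. A called gene that this rule would name is not reported here. Thyroid hormone response genes are given as a check of the treatment. The members and lists were chosen with earlier results of these data known. Of 91 pairs of mice within groups, none agreed within sampling noise (lowest chi-square per degree of freedom 7.47), so that each counts as 1 mouse. Where the text reads a count of 0 to 3 reads as not detectable, this covers counting error only. Promoter windows came from RefSeq (GRCm38.p6) and gene positions and exon lengths from GENCODE vM21. Python 3.11.15 with matplotlib 3.10.9 drew the figures.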

Additional observations from a re-analysis of the deposited data

Results flagged for a closer look

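In 5 of 84 groups of 4 or more mice and elongases searched, 1 mouse lay farther from the others than Dixon's 95% limit allows, and chance alone flags about 5%, or 4.2 of 84. BATKO TH mouse 15 had 154 CPM of Elovl3 (1773 reads) against 7.57 to 27.99 CPM in the other 4, a gap of 0.8607 of the group's range, and 0.696 CPM of Elovl4 (8 reads) against 0.0676 to 0.248 CPM, a gap of 0.7133. In the same mouse the summed brown adipocyte markers stood at 3422 CPM against 1844 to 2233 CPM, the adipocyte markers at 13843 against 9047 to 11321 CPM, and the sebaceous or skin markers, in this mouse mostly Mc5r, at 7.48 against 0.805 to 2.10 CPM, and their part in its elongase levels was not tested.

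CTRL HFD mouse 10 had 3.60 CPM of Elovl3 (32 reads) against 0.502 to 0.516 CPM (4 reads each) in the other 3, a gap of 0.9954 of the range. Its summed immune markers were 65.7 against 14.7 to 16.7 CPM, and its brown adipocyte markers 4263 against 2733 to 3752 CPM. Elovl2 was flagged in CTRL mice at 30 °C (mouse 19) and in WT mice at 12 h of TH (mouse B19), each with 2 reads against 0 in the others, a gap of 1, which is within the limit of 3 reads that a count of 0 allows.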

How the results depend on the processing

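No value changed its call and its direction together under any setting. Of 559 fold changes recomputed under settings other than leaving out single mice, 545 stayed on their side of the threshold, and 122 of 129 counts of elongases called stayed within 1.5 times. Without the mice above 1000 CPM of muscle markers the sign of uncalled values turned for Elovl6 in the difference of the cold responses (0.13 to -0.30) and for Elovl1 between BATKO and CTRL mice on HFD (0.13 to -0.06). RLE size factors, leaving out mitochondrial genes, a minimum of 50, the fit over all 30 mice and leaving out the mice above 1000 CPM of muscle markers, chosen after seeing the data, changed no call of an elongase. Without a filter on low counts, 4 elongases were called at 12 h in WT mice (2 with it), 1 for the difference of the TH responses (0), 1 for HFD in BATKO mice (0) and 1 between BATKO and CTRL mice on HFD (0). The same setting lost the call of Elovl1 between BATKO and WT mice at 24 h (adjusted p = 0.0665). DESeq2 called 1 for HFD in BATKO mice, 3 at 12 h in WT mice (2 by edgeR) and 3 between BATKO and WT mice at 24 h (4). The causes were not tested.

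Leaving out 1 mouse at a time gave 0 to 1 elongases at 3 h, 1 to 4 at 12 h, 2 to 3 at 24 h, 0 to 1 for the difference of the TH responses, 3 to 5 between BATKO and WT PTU controls, 2 to 5 between them at 24 h, and 0 to 1 between BATKO and CTRL mice on HFD. A replicate block on the digits shared by PTU mice left 3 elongases called of 4 tested, and the same 6 mice without the block also gave 3. The digits did not pair the mice (correlations of deviations 0.0669, -0.27 and -0.119), and the block covers fewer mice. Elovl6 was then at -0.22 (adjusted p = 0.296), and at -0.20 without the block (adjusted p = 0.347). Elovl4 fell below the filter.

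Single calls also moved between other settings. On the 2 groups alone, Elovl3 at 12 h was called (adjusted p = 0.0303), while Elovl6 in BATKO against WT PTU controls (adjusted p = 0.0522) and Elovl1 at 24 h (adjusted p = 0.0703) were not. DESeq2 did not call the last either (adjusted p = 0.0597).

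Counts over all genes moved by more than 1.5 times in several comparisons. DESeq2 called 638 genes between BATKO and CTRL mice at 4 °C (286 by edgeR), 8 at 30 °C (1), 680 for the difference of the cold responses (149), 871 for HFD in CTRL mice (508), 267 in BATKO mice (9), 12 between genotypes on HFD (0) and 31 on chow (0). Without a filter these were 1280 and 336 for HFD, 59 and 290 between genotypes and 216 for the difference of responses. On the groups alone they were 61 at 4 °C, 320 and 66 for HFD and 114 on chow. Without the muscle-rich mice they were 2209 for cold in BATKO mice, 97 at 4 °C, 0 at 30 °C, 6 for the cold difference and 4 for HFD in BATKO mice. Leaving out 1 mouse gave 683 to 1447 at 3 h, 53 to 565 at 4 °C, 5 to 891 for the cold difference, 166 to 713 for HFD in CTRL and 0 to 55 in BATKO mice, and 0 to 10 and 0 to 117 between genotypes on HFD and chow. Depth limits Elovl2, Elovl4 and Elovl7, with at most 7, 39 and 10 reads a mouse.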
